A study of Mus musculus with 6 samples.

Results

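Interferon-stimulated genes outside the Oas family were described in livers of 2 substrains of albino mice, Balb/c and Balb/cBy. The 39 genes were named by symbol, and each was read from the probe set that carried its symbol alone, or from the one with the highest mean over all arrays where a gene had several. Of these, 36 were measured, out of 22180 genes on the array. Ifi44 had no probe set of its own symbol, and Dtx3l and Gbp2 stood only on probe sets shared with Parp9 and Gbp2b, so these 3 are not analysed here. The series holds 6 arrays of total liver RNA, 3 of Balb/c and 3 of Balb/cBy mice, each labelled a biological replicate. All mice were male and 20 weeks old, lived in individual cages, and had eaten a high-fat diet (58% of energy as fat) for 12 weeks from the age of 8 weeks. The labels give the substrain and no allele, supplier or litter. Both groups ate the same diet, and no mice on another diet were measured. A response to the diet therefore cannot be told apart from a difference between the substrains.

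Type I interferons signal through a receptor made of IFNAR1 and IFNAR2. The receptor's kinases activate STAT2, which joins IRF9 in the factor ISGF3, and ISGF3 binds the interferon-stimulated response element in the promoters of antiviral genes. Interferon gamma signals through IFNGR1 and IFNGR2 and acts on promoters through the gamma-activated site. Guanylate-binding proteins, immunity-related GTPases and the immunoproteasome are typical products of the gamma response. Hepatocytes, Kupffer cells and endothelial cells of the liver all carry these receptors. A bulk liver sample cannot tell a smaller number of cells of a type from less RNA per cell.

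Promoter sequence gives a description of the classes that is independent of the arrays. The stretches printed here are from some of the type I effectors and GTPases that hold a match. Others with a match, Rsad2 and Gbp7 among them, are not printed. A response element was taken as 2 copies of GAAA with any 2 bases between them, on either strand. A gamma-activated site was taken as TTCNNNGAA, which reads alike on both strands, and matches of the same or of different motifs may share bases. RefSeq windows of 250 bases before to 50 bases after the gene start (GRCm38.p6) were held for 31 of the 39 members. The response element was found in 14 of these 31 (45.2%), and in 3.99% of all 27025 genes with a window. The gamma-activated site was found in 11 of 31 (35.5%), and in 9.55% of all genes. A match is a description of letters only. Each line gives the 160 bases before the start, 5′ to 3′ on the gene's strand, with every match of either motif in capitals.
Isg15: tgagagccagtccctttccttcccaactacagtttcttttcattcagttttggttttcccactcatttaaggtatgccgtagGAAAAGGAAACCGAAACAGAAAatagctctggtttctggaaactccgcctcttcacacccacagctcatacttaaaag
Ifit1: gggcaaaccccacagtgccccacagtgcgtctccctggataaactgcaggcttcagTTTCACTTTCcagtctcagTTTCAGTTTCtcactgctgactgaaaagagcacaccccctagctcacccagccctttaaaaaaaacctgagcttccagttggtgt
Ifit3: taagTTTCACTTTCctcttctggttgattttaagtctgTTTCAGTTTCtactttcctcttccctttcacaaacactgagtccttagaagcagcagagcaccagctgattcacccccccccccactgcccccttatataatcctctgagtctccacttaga
Irgm1: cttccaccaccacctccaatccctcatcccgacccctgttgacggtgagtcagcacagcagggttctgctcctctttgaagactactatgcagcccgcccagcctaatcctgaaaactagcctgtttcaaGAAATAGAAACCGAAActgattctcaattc
Irgm2: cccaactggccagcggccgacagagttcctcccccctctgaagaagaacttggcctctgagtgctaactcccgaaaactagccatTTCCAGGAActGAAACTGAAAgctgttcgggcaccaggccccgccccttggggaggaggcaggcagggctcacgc
Igtp: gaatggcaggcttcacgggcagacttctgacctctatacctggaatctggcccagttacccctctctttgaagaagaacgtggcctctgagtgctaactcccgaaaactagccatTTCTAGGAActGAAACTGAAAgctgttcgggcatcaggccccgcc
The stretch of Isg15 lies at chr4:156200819-156200978 (- strand), that of Ifit1 at chr19:34640729-34640888 (+ strand) and that of Ifit3 at chr19:34583369-34583528 (+ strand). Those of the GTPases lie at chr11:48871421-48871580 (- strand) for Irgm1, chr11:58214817-58214976 (+ strand) for Irgm2 and chr11:58199396-58199555 (+ strand) for Igtp.

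By class, the response element was found in all 6 GTPases with a window, in 7 of 15 type I effectors, in 1 of 4 transcription factors (Stat2, 222 bases before the start), and in 0 of 3 receptors and 0 of 3 antigen processing genes. In Isg15 3 overlapping matches made up one run that began 78 bases before the start. Ifit1 and Ifit3 each held 2 matches on the opposite strand. Igtp and Irgm2, which are next to each other among protein-coding genes of the RefSeq assembly, held a gamma-activated site that began 11 bases before the response element in both. From 60 bases before that element to the start of Igtp, 90 of 94 bases were identical between these promoters, a stretch chosen after the sequences were seen.

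The arrays were of like overall level, with medians of 7.66 to 7.74 on the log2 scale and correlations of 0.972 to 0.988 between arrays over all probe sets. Balb/c replicate 3 and Balb/cBy replicate 1 had the lowest quality weights that limma estimated from the data (0.631 and 0.467), so the members' median and count and the genes that moved most are also given with either left out. Hepatocyte markers were present on every array, with a mean level of the 7 measured between 13.38 and 13.47, Alb, Apoa1 and Ttr among them. The table holds no detection calls, so whether a low value lies above background is not known. Probe sets differ in their response, and levels are therefore compared between arrays and not between genes.

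In Balb/cBy livers 30 of the 36 measured members were higher than in Balb/c, or 26 of 36 with a repeated quantile normalization, where 49.1% of all genes were higher with the deposited values and 47% with the repeated normalization. The median difference (Balb/cBy minus Balb/c) was 0.076 on the log2 scale over the members and -0.0028 over all genes. The larger differences were those of Usp18 (0.66), Igtp (0.51), Irgm2 (0.45), Xaf1 (0.42) and Stat2 (0.41), and that farthest below 0 was Psmb8 (-0.15). No member passed an adjusted p of 0.05 in limma over all 22180 genes, where 0 genes or 0% passed, and the adjusted p of every member was 0.999 or 1. At an unadjusted p under 0.05 there were 7 members, all higher, or 19.4% of those measured, where 833 of all genes (3.76%) reached it, 2.59% while higher and 1.16% while lower. The groups did not overlap for 5 members, all higher in Balb/cBy, where 4.32% of all genes were higher without overlap and 3.51% lower. For each of these 5 the exact two-sided permutation p was 0.1, the smallest that 3 arrays against 3 allow. The members were picked with earlier results of these arrays known, so these counts describe them and are no separate evidence. The median was 0.12 with 32 members higher when Balb/c replicate 3 was left out, and 0.12 with 30 higher when Balb/cBy replicate 1 was. With both left out, an alternative added after the data were seen, it was 0.21 with 31 higher. The 7 members at an unadjusted p under 0.05 had differences of 0.35 to 0.81 when Balb/c replicate 3 was left out, and of 0.28 to 0.78 when Balb/cBy replicate 1 was. Without Balb/cBy replicate 2 the number higher was 24 of 36, with a median of 0.059, and the 7 differences ran from 0.23 to 0.48. In limma 4 members were then at an unadjusted p under 0.05, beside 431 of all 22180 genes. Without Balb/c replicate 1 there were 3 members beside 871 genes, and without Balb/c replicate 3 there were 10 beside 1067.

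**Figure D1:**
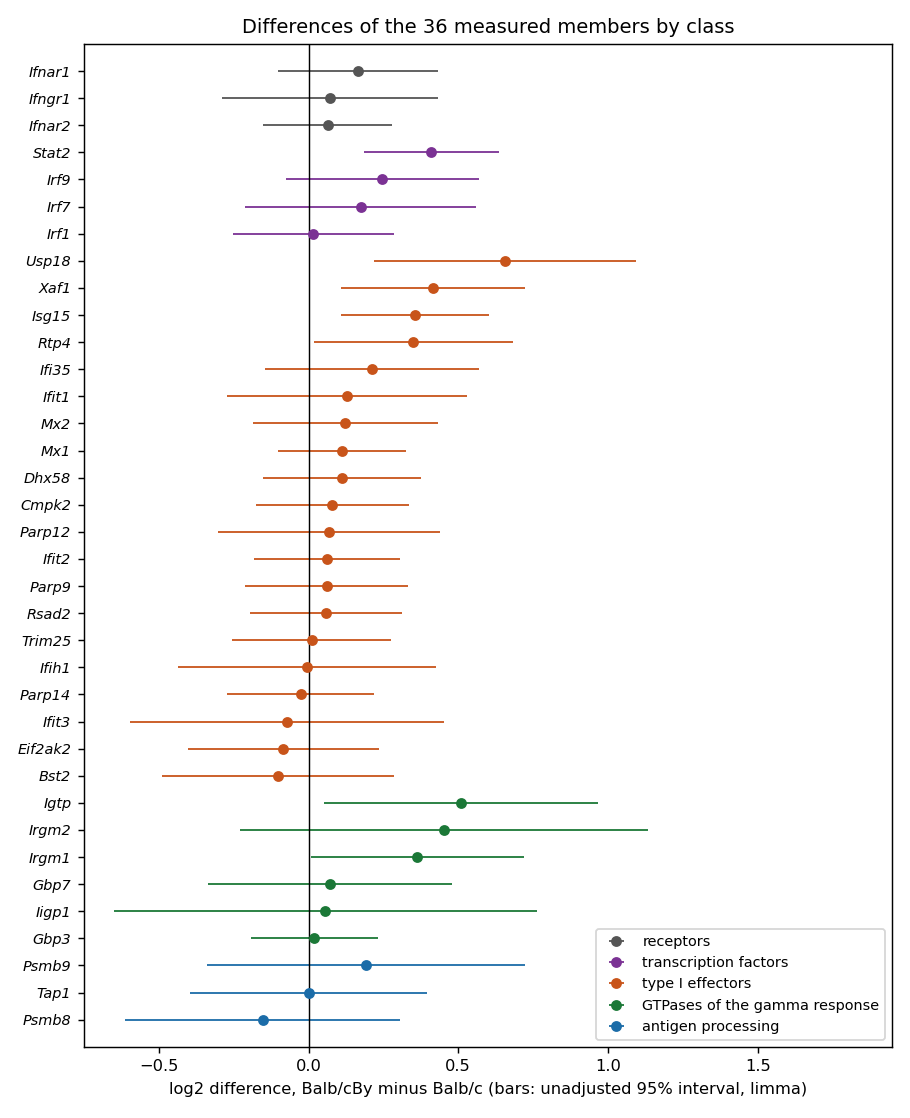
Log2 difference of Balb/cBy minus Balb/c for each of the 36 measured members (points), ordered by class, with the unadjusted 95% interval of limma (bars). The intervals of 7 members, Stat2, Usp18, Xaf1, Isg15, Rtp4, Igtp and Irgm1, lie above 0, and none lies below.

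**Figure D2:**
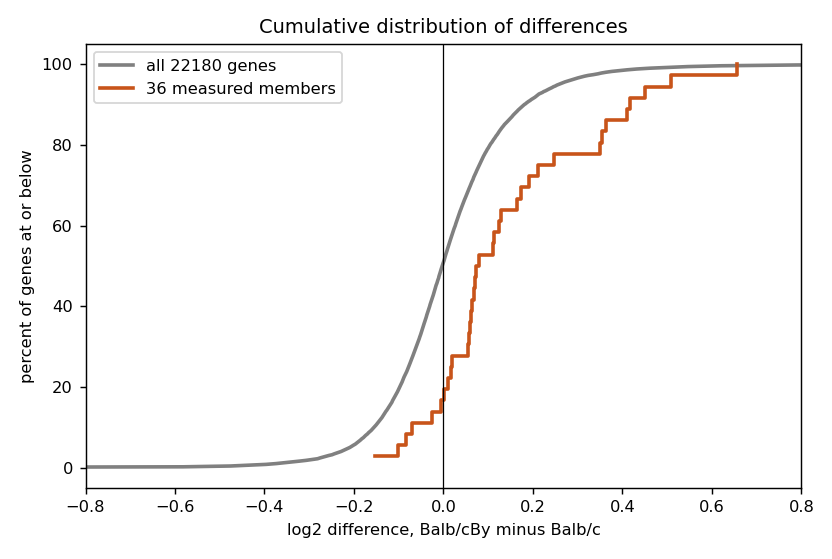
Percent of genes at or below a given log2 difference, for the 36 measured members (steps) and all 22180 genes (grey line). The member line lies to the right, with 83.3% of members above 0 against 49.1% of all genes.

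The receptors showed no difference beyond the spread between mice. Ifnar2, the ligand-binding chain of the type I receptor, read 11.26, 11.31 and 11.14 in Balb/c replicates 1 to 3 and 11.37, 11.29 and 11.23 in Balb/cBy replicates 1 to 3. The groups overlapped, and the difference was 0.064 (SE 0.094). Ifngr1, the ligand-binding chain of the gamma receptor, read 9.98, 9.81 and 9.66 in Balb/c and 9.57, 10.13 and 9.97 in Balb/cBy. Its lowest and highest values were both in Balb/cBy, with a difference of 0.071 (SE 0.16). Leaving out Balb/cBy replicate 1 gave 0.23 for Ifngr1. Ifnar1 differed by 0.16 (SE 0.12), and by 0.25 with that array left out. The interval of Ifnar2 reached from -0.15 to 0.28 (95%, unadjusted), so differences of that size were not detectable here.

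Among the transcription factors Stat2, the partner of IRF9 in ISGF3, was the one whose groups did not overlap. It read 9.32, 9.50 and 9.45 in Balb/c and 9.72, 9.89 and 9.89 in Balb/cBy. The lowest Balb/cBy array lay above the highest Balb/c array, and the spread within each group was small (9.42 ± 0.091 and 9.83 ± 0.098, SD, n = 3 each). The difference was 0.41 (SE 0.099, limma unadjusted p = 0.00298, adjusted p = 0.999), a 1.33-fold level with a 95% interval of 1.14 to 1.55. Over all genes 60 had a smaller p. The value lay between 0.36 and 0.47 when any single array was left out.

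Irf9, the DNA-binding partner of STAT2 in ISGF3, read 9.39, 9.20 and 9.74 in Balb/c and 9.65, 9.77 and 9.66 in Balb/cBy. Balb/c replicate 3 lay among the Balb/cBy arrays, so the groups overlapped. The difference was 0.25 (SE 0.14). It was 0.13 when Balb/c replicate 2 was left out, 0.40 when Balb/c replicate 3 was, and 0.42 when Balb/c replicate 3 and Balb/cBy replicate 1 both were. Irf7, which amplifies type I interferon production, differed by 0.17 (SE 0.17), which was 0.050 with Balb/c replicate 3 left out and 0.33 with Balb/cBy replicate 1 left out. Irf1, an early target of the gamma response, differed by 0.016 (SE 0.12). The class median was 0.21 over 4 genes.

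**Figure D3:**
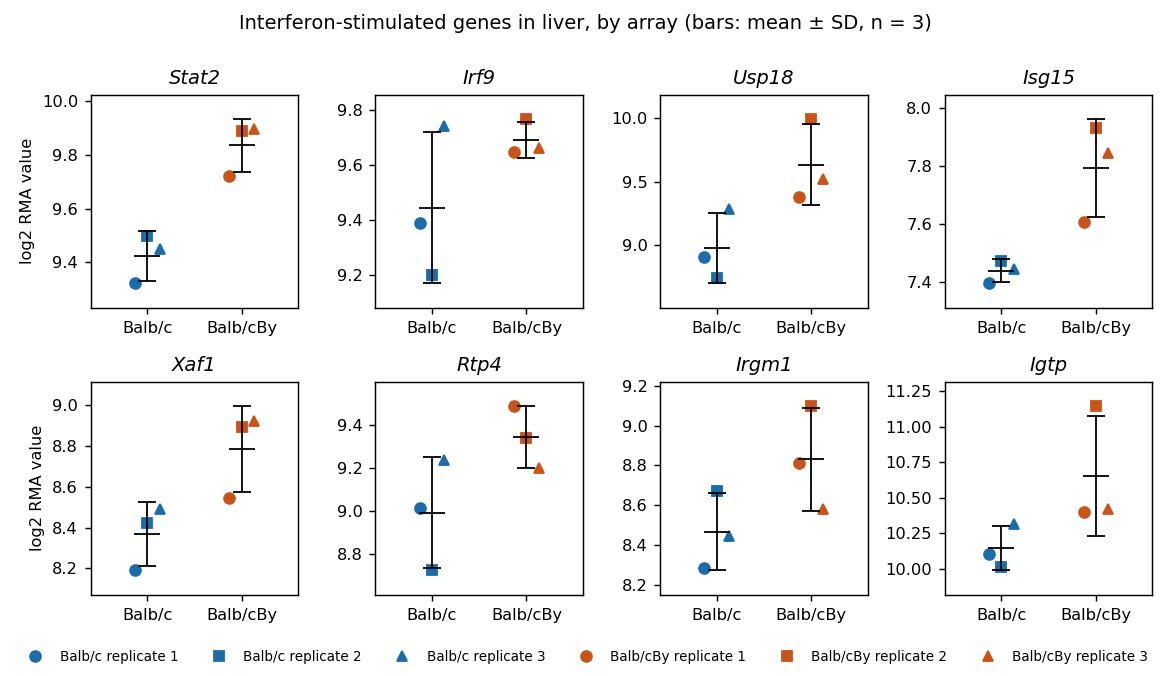
Log2 RMA values of 8 members by array, with replicates told apart by marker shape, the mean as a short line and the SD as bars (n = 3 each); each panel has its own scale. The groups do not overlap for Stat2, Usp18, Isg15, Xaf1 and Igtp, and they overlap for Irf9, Rtp4 and Irgm1.

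Of 20 measured type I effectors 15 were higher in Balb/cBy, beside 49.1% of all genes, with a median of 0.074. Leaving out Balb/c replicate 1 gave a median of 0.039, and leaving out Balb/c replicate 3 gave 0.12. With a repeated quantile normalization Trim25 turned to -0.051. An unadjusted p under 0.05 was reached by 4 of them (20%), Usp18, Isg15, Xaf1 and Rtp4, beside 3.76% of all genes. Usp18, the protease that removes ISG15 from proteins and restrains the receptor, read 8.91, 8.74 and 9.28 in Balb/c and 9.38, 9.99 and 9.53 in Balb/cBy. The groups did not overlap, although Balb/c replicate 3 and Balb/cBy replicate 1 lay close together. The difference was 0.66 (SE 0.19, limma unadjusted p = 0.00844, adjusted p = 0.999), or 1.58-fold with a 95% interval of 1.16 to 2.13, and 77 genes of 22180 had a larger one.

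Isg15, the ubiquitin-like modifier itself, read 7.40, 7.47 and 7.45 in Balb/c and 7.61, 7.93 and 7.84 in Balb/cBy. The Balb/c arrays were nearly equal and every Balb/cBy array lay above them. Its difference was 0.36 (SE 0.11, limma unadjusted p = 0.0107, adjusted p = 0.999), a 1.28-fold level. The enzymes that attach ISG15 were looked up after these values were seen. Uba7, the activating enzyme, differed by 0.11 (SE 0.19), Ube2l6, the conjugating enzyme, by 0.097 (SE 0.13), and Herc6, the ligase of mice, by -0.19 (SE 0.14). The groups overlapped for all 3.

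Xaf1, a partner of the XIAP apoptosis inhibitor, read 8.19, 8.42 and 8.49 in Balb/c and 8.54, 8.89 and 8.92 in Balb/cBy. The groups did not overlap, by a gap smaller than the spread within either. The difference was 0.42 (SE 0.13, limma unadjusted p = 0.0141, adjusted p = 0.999). Rtp4, a receptor transporter protein induced by interferon, read 9.01, 8.72 and 9.24 in Balb/c and 9.48, 9.34 and 9.20 in Balb/cBy. Balb/cBy replicate 3 lay below Balb/c replicate 3, so the groups overlapped, and the difference was 0.35 (SE 0.14), or 0.22 without Balb/c replicate 2.

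Many well known antiviral effectors had differences no larger than their errors or close to them. Among the tetratricopeptide proteins that sense viral RNA ends, Ifit1 differed by 0.13 (SE 0.17), Ifit2 by 0.060 (SE 0.11) and Ifit3 by -0.071 (SE 0.23), although the promoters of Ifit1 and Ifit3 hold the matches printed above. Ifit1 was at 0.33 when Balb/c replicate 3, its highest array, was left out. Ifit3 turned to 0.22 without Balb/cBy replicate 3, its lowest array. The dynamin-like GTPases Mx1 and Mx2 differed by 0.11 (SE 0.093) and 0.12 (SE 0.13), and the neighbours Rsad2, which makes a chain-terminating nucleotide, and Cmpk2, a nucleotide kinase, by 0.057 (SE 0.11) and 0.079 (SE 0.11). The RNA helicases Dhx58 and Ifih1 differed by 0.11 (SE 0.11) and -0.0058 (SE 0.19), and Eif2ak2, the RNA-activated kinase, by -0.084 (SE 0.14). The tether of budding virions, Bst2, differed by -0.10 (SE 0.17), and the ubiquitin ligase Trim25 by 0.011 (SE 0.12).

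Parp12, an ADP-ribosyltransferase, read 10.33, 10.23 and 10.13 in Balb/c and 9.92, 10.54 and 10.43 in Balb/cBy. Balb/cBy replicate 1 was the lowest of the 6 and the other two Balb/cBy arrays were the highest, and the difference was 0.068 (SE 0.16). Its relatives Parp9 and Parp14 differed by 0.060 (SE 0.12) and -0.027 (SE 0.11). Ifi35, an interferon-induced leucine zipper protein, read 9.74, 9.53 and 9.38 in Balb/c and 9.45, 9.90 and 9.94 in Balb/cBy, with a difference of 0.21 (SE 0.16). The groups overlapped there, and Ifi35 was the only member with a second probe set of its symbol alone. That set read 8.90, 8.72 and 8.73 in Balb/c and 9.05, 8.90 and 8.94 in Balb/cBy, with the highest Balb/c array level with the lowest Balb/cBy array.

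All 6 measured GTPases of the gamma response were higher in Balb/cBy with the deposited values, beside 49.1% of all genes, with a median of 0.22. With a repeated quantile normalization Iigp1 was at -0.024 and the other 5 stayed above 0. The immunity-related GTPases of the regulatory kind led the class. Igtp, also called Irgm3, which guards host membranes against attack on pathogen vacuoles, read 10.11, 10.01 and 10.32 in Balb/c and 10.40, 11.14 and 10.42 in Balb/cBy. The groups did not overlap, and Balb/cBy replicate 2 stood well above all others. The difference was 0.51 (SE 0.20, limma unadjusted p = 0.0335, adjusted p = 0.999), and 0.27 with Balb/cBy replicate 2 left out.

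Irgm2, the neighbour of Igtp with the closely similar promoter, read 9.23, 9.37 and 9.91 in Balb/c and 9.92, 10.58 and 9.36 in Balb/cBy. Balb/cBy replicate 2 was again the highest, while Balb/cBy replicate 3 lay among the Balb/c arrays. The difference was 0.45 (SE 0.30), 0.14 with Balb/cBy replicate 2 left out and 0.75 with Balb/cBy replicate 3 left out. Whether probes of these related genes read each other's transcripts was not tested. Irgm1, the third of this kind, which also acts in autophagy, read 8.28, 8.67 and 8.45 in Balb/c and 8.81, 9.10 and 8.58 in Balb/cBy. The groups overlapped, and the difference was 0.36 (SE 0.15, limma unadjusted p = 0.0463), or 0.23 without Balb/cBy replicate 2.

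Iigp1, an effector GTPase that disrupts pathogen vacuoles, had another order of arrays. It read 9.72, 10.13 and 11.12 in Balb/c and 10.53, 10.35 and 10.27 in Balb/cBy. The Balb/c arrays spread on both sides of the Balb/cBy arrays, with the highest value in Balb/c replicate 3. Its difference of 0.056 (SE 0.31) became 0.46 when Balb/c replicate 3 was left out, and -0.25 when Balb/c replicate 1 was. The guanylate-binding proteins Gbp3 and Gbp7 differed by 0.020 (SE 0.092) and 0.073 (SE 0.18). Over the class, leaving out Balb/cBy replicate 2 gave a median of 0.11, and leaving out Balb/c replicate 3 gave 0.40.

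Antigen processing genes had no common direction, and leaving out Balb/cBy replicate 2 turned their median from 0.00043 to -0.15. Tap1, a subunit of the peptide transporter, read 9.19, 9.64 and 9.27 in Balb/c and 9.09, 9.67 and 9.34 in Balb/cBy, and its group means were 9.37 in both. Psmb8, an immunoproteasome subunit, read 9.44, 9.86 and 9.03 in Balb/c and 9.10, 9.45 and 9.32 in Balb/cBy. The highest and lowest arrays of Psmb8 were both Balb/c, and it differed by -0.15 (SE 0.20). Psmb9, another such subunit, differed by 0.19 (SE 0.23), and by -0.041 without Balb/cBy replicate 2. These genes are next to each other in the assembly's order of coding genes, Psmb9, Tap1 and Psmb8, and their differences still ran from 0.19 to -0.15.

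The arrays did not share one order across the classes. Balb/cBy replicate 2 had the highest value of the 6 arrays for 16 of 36 members (44.4%), where it was highest for 21.7% of all genes, and it was the lowest for 0 members. Among the GTPases it was highest for 5 of 6. Balb/c replicate 3 was highest for 8 of 20 type I effectors (40%), against 16.3% of all genes, Ifih1, Ifit1, Mx2 and Eif2ak2 among them. Balb/c replicate 1 was highest for 0 members and lowest for 11. Of the 4 measured transcription factors only Stat2 had groups without overlap by gene. With Stat2 included, class mean levels of the transcription factors were 9.32 to 9.35 in Balb/c and 9.39 to 9.64 in Balb/cBy, without overlap. In the type I effectors they were 8.41 to 8.59 and 8.53 to 8.70, and in the GTPases 8.91 to 9.35 and 9.15 to 9.62, with overlap in both classes. In antigen processing they were 8.94 to 9.51 and 8.92 to 9.53.

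**Figure D4:**
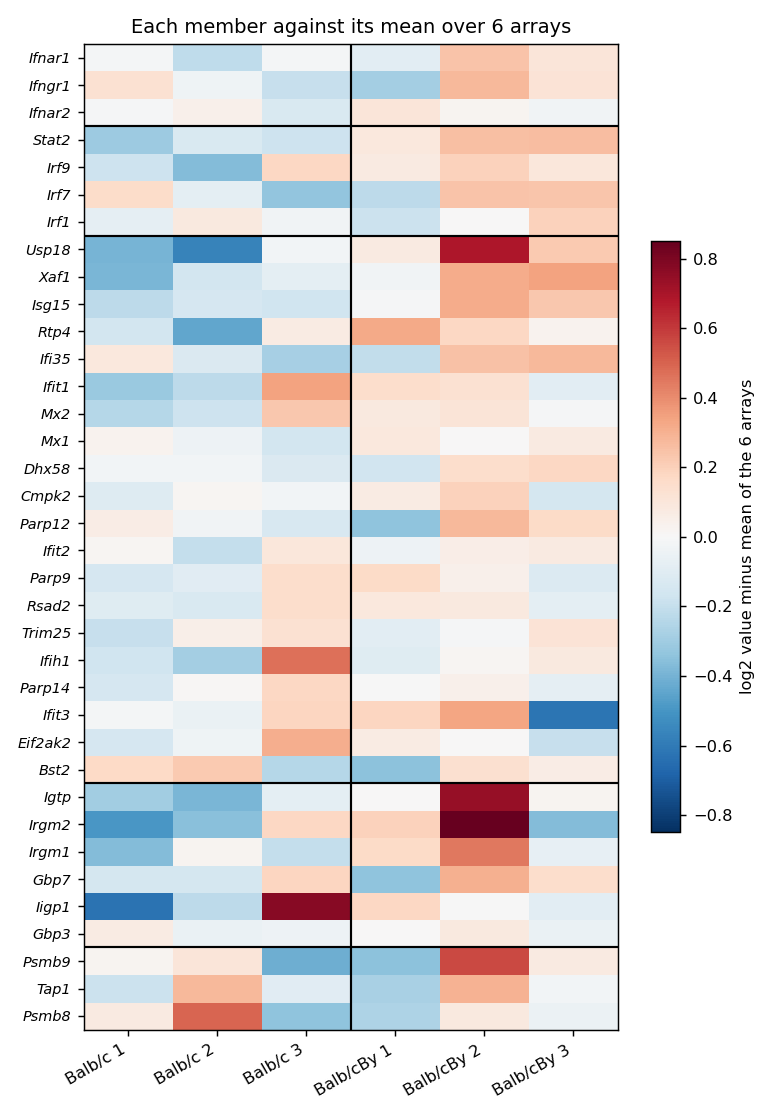
Log2 value of each member minus its own mean over the 6 arrays (colour), with arrays in columns, members in rows, and lines between classes and between substrains. Usp18, Igtp and Irgm2 are highest in Balb/cBy replicate 2, and Iigp1 and Ifih1 are highest in Balb/c replicate 3.

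Members with and without a response element in the window had nearly the same median difference. The 13 measured members that hold it had a median of 0.073, with 9 higher, and the 15 that have a window without it had a median of 0.071, with 14 higher. For the gamma-activated site the medians were 0.064 over 11 members with it and 0.079 over 17 without it. Usp18, Rtp4, Iigp1 and 5 other members had no window and are not in these counts.

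Markers of other cell types were read on the same arrays. Of 10 Kupffer cell and macrophage markers 6 were higher in Balb/cBy, and their mean level was 9.51 to 10.25 in Balb/c and 9.80 to 10.17 in Balb/cBy. Mpeg1 (0.35, SE 0.12) and Vsig4 (0.41, SE 0.16) were higher, while Adgre1, which encodes F4/80, differed by -0.37 (SE 0.29), and by -0.69 to -0.095 when any single array was left out. Balb/c replicate 3 and Balb/cBy replicate 1 had the lowest macrophage level of their groups, and they were also the lowest of their groups for the antigen processing genes. Neutrophil markers were at 7.19 to 7.45 in Balb/c and 7.46 to 7.62 in Balb/cBy, 5 of 6 higher, with Retnlg at 0.40 (SE 0.11). T and NK cell markers were at 7.47 to 7.62 and 7.40 to 7.49, 9 of 10 lower, with Nkg7 at -0.24 (SE 0.086). B and plasma cell markers were at 7.68 to 7.72 and 7.88 to 8.20, with a median difference of -0.056 and 3 of 6 higher. The antibody genes Ighm and Jchain were higher, Jchain by 1.12 (SE 0.28) and Ighm by 1.59 (SE 0.21) on the probe set of highest mean, but by 0.61 over the mean of its 7 probe sets. Mzb1, a further gene of this list, differed by 0.061 (SE 0.12), and its groups overlapped. The B cell genes Cd79a (-0.17, SE 0.098), Cd79b (-0.27, SE 0.096) and Ms4a1 (-0.27, SE 0.093) were lower, without overlap, beside 3.51% of all genes. Mean levels of Ms4a1 (6.19), Retnlg (6.24), Cd79a (7.06) and Jchain (7.59) were below the array medians, and whether they lie above background is not known. Markers of plasmacytoid dendritic cells, known for abundant type I interferon, were at 7.73 to 7.92 and 7.77 to 8.01, 2 of 6 higher. Liver endothelial markers were at 9.89 to 10.02 and 9.83 to 10.07, 4 of 6 higher. The part of any of these cell types in the members' differences was not tested.

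**Figure D5:**
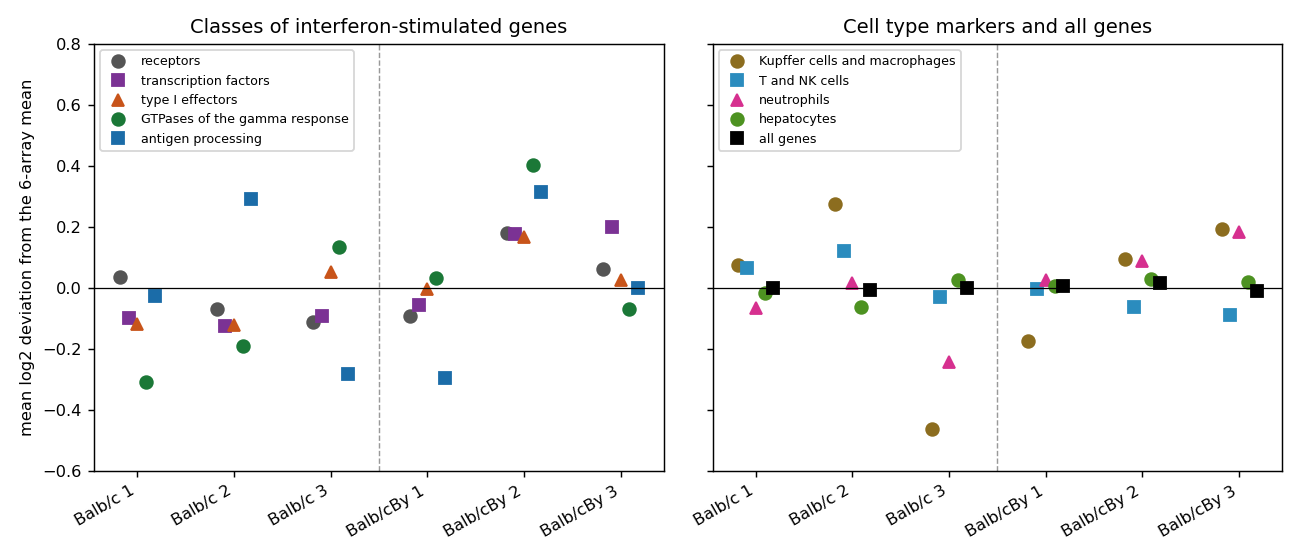
Mean deviation from the 6-array mean (log2) for the classes of interferon-stimulated genes (left) and for 4 lists of cell type markers and all genes (right), by array. The GTPases reach 0.40 in Balb/cBy replicate 2, and macrophage markers are at -0.46 in Balb/c replicate 3, while the mean of all genes stays between -0.0099 and 0.016.

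Other genes of the pathway gave 89 measured of 99 listed, and 0 passed the adjusted threshold in either direction in limma. At an unadjusted p under 0.05 there were 8 higher and 1 lower, or 10.1% of those measured, beside 2.59% higher, 1.16% lower and 3.76% in all over all genes. Of 35 further type I effectors 29 were higher, beside 49.1% of all genes, with a median of 0.14. Lgals3bp, a secreted glycoprotein, differed by 0.35 (SE 0.096) without overlap, and Trim34a, the one gene below 0 at that threshold, by -0.43 (SE 0.13) on the probe set of higher mean and by -0.27 over the mean of its 2 probe sets. Of 15 sensors and IRF factors 12 were higher, with a median of 0.10. Among them the kinase Ikbke differed by 0.27 (SE 0.093), without overlap, and the RNA sensor Tlr7 by 0.36 (SE 0.14).

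Interferon ligands gave 4 of 9 higher and a median of -0.0025, with Ifna4 at -0.16 (SE 0.14) and Ifnb1 at -0.13 (SE 0.12). Without detection calls it is not known whether these probe sets read ligand RNA above background. Receptor and JAK-STAT genes gave 7 of 11 higher and a median of 0.029, with Ptpn2, a phosphatase of the pathway, at 0.26 (SE 0.11) and Stat3 at 0.32 (SE 0.14). Of 9 further GTPases 3 were higher (median -0.071), with Gbp8 at -0.46 (SE 0.25; -0.12 with array weights) and Gm4951 at 1.03 (SE 0.61). Of 10 further genes of the gamma response and antigen processing 3 were higher (median -0.021), with Nlrc5, the activator of MHC class I genes, at 0.16 (SE 0.14) and the peptidase Erap1 at -0.16 (SE 0.14). The medians of these last lists were below 0 and that of the 6 GTPases above was over 0, and the difference between the lists was not tested.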

How the data were processed

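Liver RNA was hybridised to 6 one-colour Affymetrix arrays, from 500 ng of total RNA each, per the labels' protocols. The authors deposited log2 values per probe set made with RMA, per the submitters' processing notes. Their scale follows from the range of the numbers. The sources used here do not name an RMA version, probe set annotation or genome build. Of 41345 probe sets, 23521 had 1 gene symbol in GEO's platform annotation, which can be old, 1814 had several and 16010 were unnamed. Balb/cBy was compared with Balb/c over all 22180 genes with lmFit and eBayes (limma 3.58.1, R 4.3.3), with no covariate or filter on low values and Benjamini-Hochberg adjustment. Groups came from the sample titles. Each limma p sets a difference against the spread between these mice only, with the variance of each gene moderated over all genes. The number of arrays limits the precision, and the labels name no batch. Members, classes and lists were chosen with earlier results of these data known. Values by array are given for members without overlap, with an unadjusted p under 0.05, or among the 2 of highest mean level in their class, and for Irgm2, chosen later; of each further list the 2 genes of smallest p are named. Enzymes of ISG15 conjugation and single markers were picked with their values in view. The fit was first tested on simulated data, where detection was required only of planted differences larger than that of any member. Alternatives were the replicate block, recentring, repeated quantile normalization, 2 filters, averaged probe sets, another variance model, array weights and leaving out arrays.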

Additional observations from a re-analysis of the deposited data

How the results depend on the processing

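No setting made a member pass: over 531 values (36 members under up to 15 settings) 0 reached an adjusted p of 0.05, and 492 kept the sign they had with all 6 arrays. The replicate block, the 2 filters and the other variance model cannot change a difference. Averaging probe sets changed only that of Ifi35 among the members. Nearly all signs under these settings therefore held by construction, and the 492 include them. Signs held in every setting for 18 members, all higher in Balb/cBy: Ifnar1, Stat2, Irf9, Irf7, Usp18, Isg15, Ifit1, Ifi35, Dhx58, Mx1, Mx2, Rsad2, Cmpk2, Xaf1, Rtp4, Irgm1, Irgm2 and Igtp. Some of these held only barely. Cmpk2 fell to 0.0013 without Balb/cBy replicate 2, Ifit1 to 0.0024 without Balb/c replicate 1, and Rsad2 to 0.0073 without Balb/c replicate 2. The lowest value of Stat2 was 0.34, with repeated quantile normalization. Genes past the threshold over the whole array were 0 with all arrays, 12 with array weights, 13 without Balb/c replicate 3 and Balb/cBy replicate 1 together, and 0 to 3 without any single array. Leaving out Balb/c replicate 3 gave 2, and leaving out Balb/cBy replicate 1 gave 3. The ordinary statistic without moderation and all probe sets taken one by one gave 0. With array weights the median of the members was 0.15, and without the pair of arrays it was 0.21, with 0.17 for the type I effectors. Without any single array the median ran from 0.059 to 0.12 over the members and from 0.015 to 0.23 over the receptors, highest without Balb/cBy replicate 1.

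The replicate block gave 0 calls over all genes, as without it. At an unadjusted p under 0.05 the block gave 6 members in place of 7, beside 511 of all genes in place of 833. Same-numbered arrays deviated from their group means in opposite directions (correlations of -0.32, -0.20 and -0.23). Such deviations sum to 0 within a group, so the correlations depend on each other. They cannot tell whether same-numbered mice were paired.

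Without any single array the lowest and highest differences of members whose sign turned were -0.048 and 0.23 for Ifngr1, -0.080 and 0.11 for Irf1, -0.025 and 0.12 for Ifit2, -0.25 and 0.22 for Ifit3, -0.15 and 0.23 for Ifih1, -0.0077 and 0.15 for Parp9, -0.054 and 0.26 for Parp12, -0.10 and 0.054 for Parp14, and -0.085 and 0.079 for Trim25. They were -0.25 and 0.048 for Bst2, -0.18 and 0.049 for Eif2ak2, -0.017 and 0.061 for Gbp3, -0.061 and 0.26 for Gbp7, -0.25 and 0.46 for Iigp1, -0.15 and 0.14 for Tap1, -0.36 and 0.055 for Psmb8, and -0.041 and 0.41 for Psmb9. For Uba7, which is no member, they were -0.047 and 0.29. Recentring gave 0.011 for Ifih1. Repeated quantile normalization gave -0.042 for Irf1, -0.051 for Trim25, -0.024 for Iigp1 and -0.079 for Tap1. Array weights gave 0.12 for Ifih1, 0.0079 for Parp14 and -0.042 for Gbp3. Without the pair of arrays the values were -0.020 for Ifnar2, 0.28 for Ifih1, 0.050 for Parp14 and 0.032 for Erap1. For each of these the cause was not tested.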

Other observations

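Gm4951, a GTPase gene model from the list of further family members, had the widest difference of the pathway genes and gives its values with no test beyond limma's (1.03, SE 0.61, adjusted p = 0.999). It read 9.11, 8.51 and 11.34 in Balb/c replicates 1 to 3 and 10.64, 10.68 and 10.72 in Balb/cBy replicates 1 to 3. The Balb/cBy arrays were nearly equal, while Balb/c replicate 3 was the highest of all 6 and the other Balb/c arrays the lowest. Without Balb/c replicate 3 the difference was 1.87, and without Balb/c replicate 2 it was 0.45. Without Balb/c replicate 3 and Balb/cBy replicate 1 together it was 1.89, with an adjusted p of 0.0429 in limma. That setting was added after the data were seen and leaves out the highest array of Gm4951, so its p is no separate evidence. Over its settings the adjusted p ran from 0.0429 to 1. Iigp1 shared the order of the Balb/c arrays only in part: 11.12 in replicate 3 was its highest, and 9.72 in replicate 1 its lowest. Jak2, a kinase of the gamma receptor, was also highest in Balb/c replicate 3, at 8.75, with 7.76 to 8.16 on the other arrays. These 3 genes were chosen after their values were seen.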
